A study of Mus with 7 samples.

Results

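Gsta4 encodes an alpha class glutathione transferase. It was read here in mouse hearts after saline or doxorubicin (DOX) from the probe A_51_P112223, designed on transcript NM_010357 and printed in 10 spots on every array. Gsta4 was chosen by its DOX minus CON difference on these arrays, so that difference is given below as a description, with no test. It is 1 of 46 genes named here, among 60691 features that measured a transcript and 62976 spots per array. Symbols were looked up only for the 50 features printed 10 times. Whether another feature also measures Gsta4 was therefore not checked. The sources used here give no probe sequence, so whether the probe also binds transcripts of related alpha class genes was not tested.

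The control (CON) group comprised replicates 1, 2 and 3, taken from male C57BL/6J mice given 1 intraperitoneal injection of saline. The DOX group comprised replicates 1, 2, 4 and 5, taken from mice of the same strain and sex given 1 intraperitoneal injection of DOX at 15 mg/kg, an anthracycline antitumour drug whose use is limited by toxicity to the heart. Hearts were taken on day 3, and each RNA sample was hybridized to its own single-colour array. The labels name no mouse for an array, so the SDs given here measure the spread between these samples. The age of the mice is not given in the sources used here.

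Glutathione transferases couple glutathione to reactive electrophiles, and the alpha class enzyme encoded by Gsta4 is known for its high activity towards 4-hydroxynonenal, an aldehyde released when membrane lipids are oxidized. Coupling to glutathione makes the aldehyde water soluble and lets the cell export it, before it can bind to proteins. The heart is rich in mitochondria and in oxidizable lipids, and DOX cycling between redox states is a known source of reactive oxygen there.

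The CON arrays shared a scan session and the DOX arrays shared another, with 366 days between them, so scan session and treatment cannot be told apart in any difference between the groups. Before scaling, the median signal of the spots that measured a transcript was 58.8, 71.2 and 70.1 on the CON arrays and 107.7, 121.5, 131.7 and 126.1 on the DOX arrays. Within the DOX group, replicate 5 stood apart. Over the tested features, the SD of the log2 differences between it and another DOX array was 0.485 to 0.598, against 0.435 to 0.440 among the other DOX arrays and 0.358 to 0.398 among the CON arrays. In the array identifier of the scanner header, DOX replicate 5 shared its first number with the 3 CON arrays, while the other DOX arrays shared another. What that number stands for is not given in the sources used here. None of the 27 cell type markers chosen for the heart, such as Myh6 of cardiomyocytes, was among the genes named here. Symbols were looked up only for features printed 10 times, so the tissue label was not checked against these markers.

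Gsta4 signal was lower on the DOX arrays than on the CON arrays after quantile normalization, which gives every array the same distribution of values. In the CON group the normalized log2 signal of Gsta4 was 11.02, 11.15 and 10.96 in replicates 1, 2 and 3. In the DOX group it was 9.98, 9.42, 10.08 and 10.85 in replicates 1, 2, 4 and 5. The 3 CON arrays were close together, DOX replicates 1, 2 and 4 lay well under them, and DOX replicate 5 lay just under the lowest CON array. The groups did not overlap, with 0.11 on the log2 scale between the lowest CON array and DOX replicate 5, and 0.88 between the lowest CON array and the next DOX array. The mean was 11.04 ± 0.10 (SD, n = 3) in the CON group and 10.08 ± 0.59 (SD, n = 4) in the DOX group, a difference of -0.96 on the log2 scale. The CON level was thus 1.94-fold the DOX level, which lies under the 2-fold threshold of the study's methods. This direction did not hold under every scaling. The difference was +0.35 without scaling and -0.12 when scaled to the other features printed 10 times. On the quantile-normalized signals it was +0.22 relative to the arrays' Gapdh 3′ control probe and -0.69 relative to Actb. In RNA of heart tissue, fewer cells of a type and less RNA per cell cannot be told apart.

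**Figure D1:**
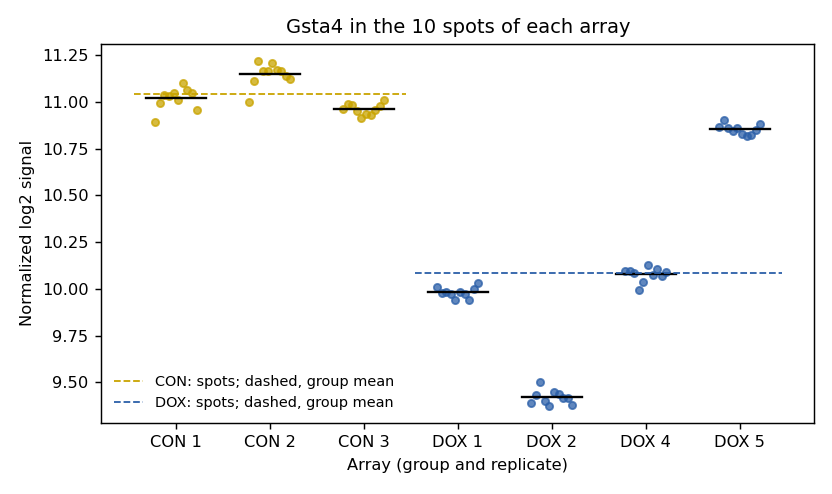
Normalized log2 signal of Gsta4 (vertical axis) in each of its 10 spots (points) on the 7 arrays (horizontal axis), with the array means as black lines and the group means as dashed lines. The spots of an array lie close together, and DOX replicate 5 at 10.85 sits far above DOX replicates 1, 2 and 4 and next to the CON arrays.

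The spread between DOX arrays was much wider than the spread between spots of 1 array. The 10 spots of Gsta4 lay between rows 11 and 361 of 384 and between columns 14 and 129 of 164, so they sampled most of the array surface. Within an array, their SD was 0.058, 0.061 and 0.029 on CON replicates 1, 2 and 3, and 0.029, 0.039, 0.038 and 0.027 on DOX replicates 1, 2, 4 and 5. Pooled over the arrays it was 0.042. The SD between CON arrays was 2.26 times that value, and the SD between DOX arrays was 14 times it. The spots of DOX replicate 5 ranged from 10.82 to 10.90, and the lowest of the 30 CON spots was 10.89. Only 1 of the 30 CON spots was at or below the highest spot of DOX replicate 5. The spread over the surface of an array was thus far smaller than the step between DOX replicate 5 and the other DOX arrays.

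The Gsta4 signal was well measured on every array. The processed signal before scaling, as a mean of the 10 spots, was 1093, 1439 and 1253 on CON replicates 1, 2 and 3. On DOX replicates 1, 2, 4 and 5 it was 1371, 968, 1722 and 2840. The local background around these spots was 13.0 to 17.0, every one of the 10 spots was well above background on each array, and none was saturated or of uneven brightness. The scanner software marked 1 spot on CON replicate 1 and 1 on CON replicate 2 as an outlier among the 10, and without them the normalized difference was -0.97. Without scaling, DOX replicate 5 therefore had the highest Gsta4 signal of the 7 arrays and DOX replicate 2 the lowest.

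Those DOX replicates did not measure the same drop. The mean of DOX replicates 1, 2 and 4 was 9.83 ± 0.35 (SD, n = 3), which was 1.22 on the log2 scale below the CON mean, so that the CON level was 2.32-fold theirs. DOX replicate 5 was 0.19 below the CON mean, a CON level 1.14-fold its own. It was 1.03 above the mean of the other DOX arrays. DOX replicate 2, in turn, was 0.61 below the mean of DOX replicates 1 and 4. Whether Gsta4 passed 2-fold without DOX replicate 5 depended on the scaling of the arrays. It did so after quantile normalization, also with normexp (-1.17) or over all spots (-1.23), and with the 75th percentile (-1.09). It stayed under 2-fold at -0.78 with the median, -0.40 with the features printed 10 times and +0.07 without scaling.

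The direction of the Gsta4 difference depended on how the arrays, of which the DOX arrays were brighter as a whole, were scaled to one another. With normexp background correction before quantile normalization the difference was -0.93, and with quantile normalization over all spots it was -0.97. With each array scaled to its 75th percentile it was -0.83, with DOX replicate 5 at 10.92 inside the range of the CON arrays of 10.89 to 11.05. With each array scaled to its median it was -0.52, and DOX replicate 5 at 11.04 then exceeded the highest CON array at 10.89. Scaled to the other features printed 10 times, the difference shrank to -0.12. Without scaling it turned to +0.35, as the means of the unscaled log2 signal were 10.29 ± 0.20 (SD, n = 3) in the CON group and 10.64 ± 0.65 (SD, n = 4) in the DOX group. The CON and DOX arrays overlapped under the 75th percentile, the median, the features printed 10 times and no scaling, and did not under the 3 settings that use quantiles.

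The scalings also moved the median of all features. The median difference of all tested features was -0.07 after quantile normalization, -0.45 with the 75th percentile, -0.14 with the median, +0.26 with the features printed 10 times and +0.73 without scaling. Gsta4 lay 0.89 below that median after quantile normalization and 0.38 below it under each of the 4 settings that add a constant or nothing to an array, which move Gsta4 and the median alike, so these values bear no weight on the direction. In all 7 scalings DOX replicate 5 was the highest DOX array for Gsta4 and DOX replicate 2 the lowest of all arrays. The step from the mean of DOX replicates 1, 2 and 4 up to DOX replicate 5 was 0.98 to 1.11 on the log2 scale across those scalings.

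**Figure D2:**
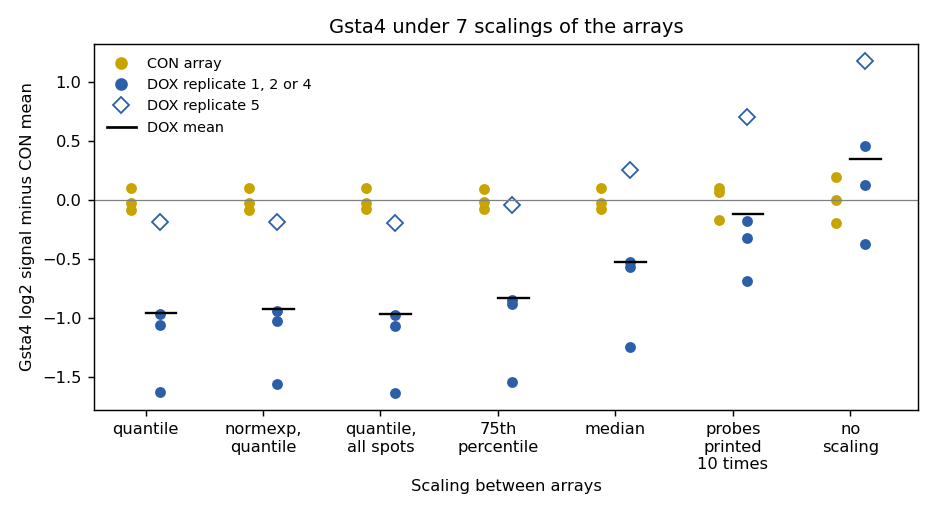
Log2 signal of Gsta4 minus the CON mean (vertical axis) for every array under 7 scalings (horizontal axis), with DOX replicate 5 as an open diamond and the DOX mean as a black line. The DOX mean moves from -0.96 under quantile normalization to +0.35 without scaling, while DOX replicate 5 stays the highest DOX array and DOX replicate 2 the lowest array.

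A difference of this size was common on these arrays. A feature was tested when 3 or more of the 7 arrays showed it well above background. Of the 55464 tested, 17.3% had a lower DOX minus CON difference than Gsta4, and the quartiles of all differences were -0.70 and 0.61. In 36.3% of the tested features every DOX array was below every CON array, as for Gsta4, and in 31.1% every DOX array was above every CON array. By limma, with more than 2-fold change and a Benjamini-Hochberg adjusted p under 0.05, 8945 features (16.1%) were lower in the DOX group and 8583 (15.5%) were higher. With scaling to the 75th percentile these counts became 15250 lower and 6134 higher, which moved the share of lower calls from 51.0% to 71.3%. With normexp before quantile normalization they became 4302 lower and 4782 higher, a share of lower calls of 47.4%.

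In DOX replicate 5, most features with a similar drop did not behave as Gsta4 did. In 8983 tested features, the mean of DOX replicates 1, 2 and 4 was more than 2-fold below the CON mean and those 3 arrays were below every CON array. For each of them, the drop in DOX replicate 5 was expressed as a percent of the mean drop in those 3 arrays. The median was 101%, with quartiles of 83.1% and 120.6%, so a typical feature of this kind dropped as far in DOX replicate 5 as in the other DOX arrays. The value for Gsta4 was 15.6%, and 122 of the 8983 features (1.36%) were at or under it. This share holds for quantile normalization. With the 75th percentile it was 3.63% for Gsta4, and DOX replicate 5 was above the CON mean by 0.25 with the median, 0.71 with the features printed 10 times and 1.18 without scaling. Without scaling DOX replicates 1, 2 and 4 showed no drop of Gsta4 on average. The share uses the same arrays that chose Gsta4, and no test is attached to it.

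**Figure D3:**
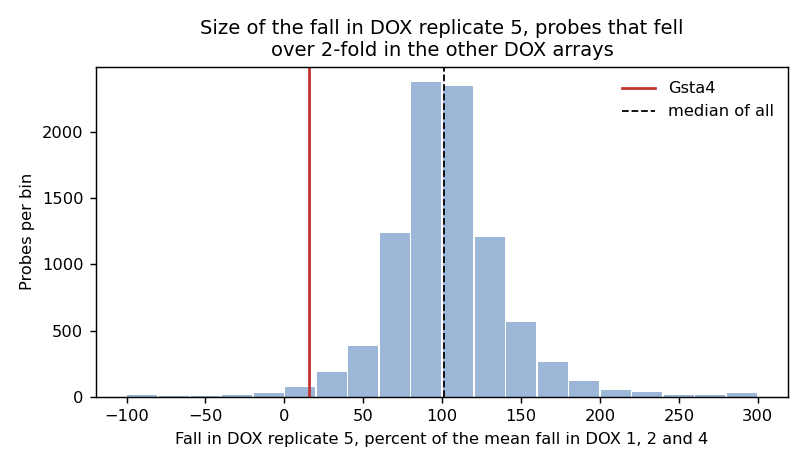
Number of features per bin (vertical axis) by the drop in DOX replicate 5 as a percent of the mean drop in DOX replicates 1, 2 and 4 (horizontal axis), over the 8983 features that dropped more than 2-fold in those 3 arrays, with features beyond the axis placed in its end bins. Gsta4 (red line, 15.6%) lies in the lower tail, and the median (dashed line) is at 101%.

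Among the 46 named genes, Gsta4 was at position 22 when ordered from the lowest DOX minus CON difference to the highest. Next below it was Hspb7, a small heat shock protein of heart and skeletal muscle, with a difference of -0.96. Next above it was Rps4l, ribosomal protein S4-like, with a difference of -0.95. These neighbours were picked by this order, so the closeness of their differences to that of Gsta4 was set by the choice. The larger group SD was 0.59 for Gsta4 and 0.51 for Hspb7, both in the DOX group. For Rps4l it was 0.36, in the CON group. Without scaling all 3 differences were above 0, with +0.35 for Gsta4, +0.31 for Hspb7 and +0.34 for Rps4l. The same difference came from unlike arrays, as Rps4l measured 11.74, 11.90, 11.77 and 11.81 on DOX replicates 1, 2, 4 and 5, with no step at DOX replicate 5.

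Hspb7 was also the gene whose pattern was most like that of Gsta4. Likeness was taken as the root mean square distance between the normalized log2 values of 2 genes over the 7 arrays, after each gene's own mean of the group means was subtracted. Hspb7 had a distance of 0.24, with 13.94, 14.02 and 13.71 on the CON arrays and 13.08, 12.59, 12.47 and 13.58 on DOX replicates 1, 2, 4 and 5. As for Gsta4, DOX replicate 5 was the highest DOX array and lay just under the lowest CON array. The drop of Hspb7 in DOX replicate 5 was 26.6% of that in the other DOX arrays, the lowest after Gsta4 among the 21 named genes that dropped more than 2-fold in DOX replicates 1, 2 and 4.

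Next in likeness came Rab5a, a GTPase of early endosomes, at a distance of 0.29 and a difference of -1.27. Hyal3, of the hyaluronidase family, followed at 0.31 with a difference of -0.75, and Nup50, a nuclear pore protein, came last of the 5 at 0.36 with a difference of -1.09. Between them was Uhrf1bp1l, a lipid transfer protein, at 0.34 with a difference of -0.54, which turned to +0.29 when scaled to the features printed 10 times. It measured 12.09, 12.22 and 12.22 on the CON arrays and 11.46, 11.47, 11.16 and 12.46 on DOX replicates 1, 2, 4 and 5, so DOX replicate 5 was above every CON array. Without scaling all 5 differences were above 0, between +0.01 for Rab5a and +0.76 for Uhrf1bp1l. By the step from the other DOX arrays up to DOX replicate 5, Gsta4 at +1.03 was exceeded among the named genes by Chgb, a secretory granule protein, at +2.28, and by Uhrf1bp1l at +1.09.

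**Figure D4:**
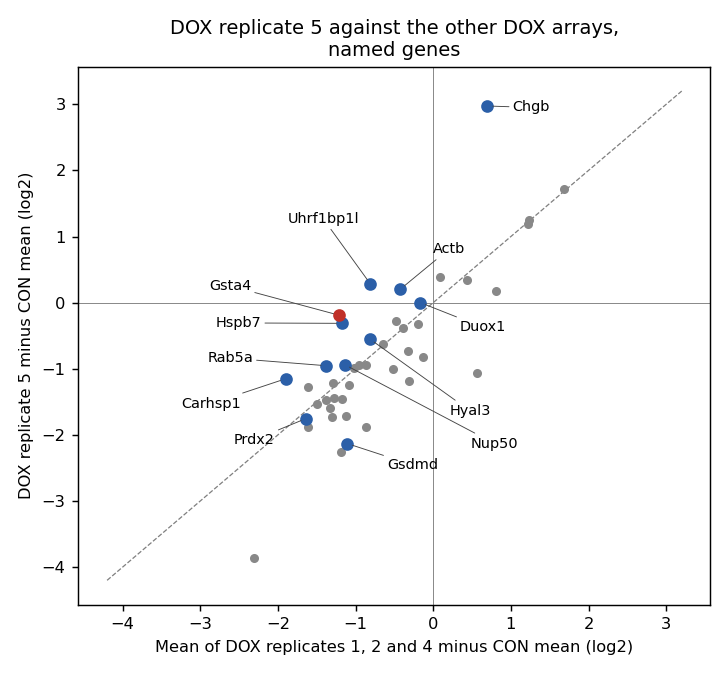
DOX replicate 5 minus the CON mean (vertical axis) against the mean of DOX replicates 1, 2 and 4 minus the CON mean (horizontal axis), both on the normalized log2 scale, for the named genes tested, with the line of equal values dashed. Gsta4 (red) at -1.22 and -0.19 sits above the line beside Hspb7, and without scaling the differences of Gsta4 and of its 5 nearest genes turn above 0.

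Symbols were looked up only for features printed 10 times, and these hardly covered the pathway around Gsta4. Whether features printed once measure more of it was not checked. Of 102 genes chosen for aldehyde, glutathione and reactive oxygen handling, 3 were among the genes named here. They were Gsta4, as 1 of 5 alpha class glutathione transferases, Prdx2, as 1 of 24 peroxidases and antioxidant enzymes, and Duox1, as 1 of 17 sources of reactive oxygen. None of 19 other glutathione transferases, 19 aldehyde dehydrogenases and reductases, 12 genes of glutathione synthesis and conjugate export and 6 regulators of the NRF2 pathway was named, so they were not analysed here. Of the 2 named genes besides Gsta4, 1 fell, 0 rose and 1 did not pass the test, beside 16.1% lower and 15.5% higher over all tested features.

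Prdx2, peroxiredoxin 2, which reduces hydrogen peroxide in the cytosol, fell in the DOX group. Its normalized log2 signal was 15.74, 15.67 and 15.77 on the CON arrays and 13.96, 14.14, 14.17 and 13.97 on DOX replicates 1, 2, 4 and 5. All 4 DOX arrays lay together and far below the CON arrays, with DOX replicate 5 among the lowest. The mean went from 15.73 ± 0.05 (SD, n = 3) to 14.06 ± 0.11 (SD, n = 4), a difference of -1.67 (SE 0.10) and a CON level 3.17-fold the DOX level (limma, adjusted p = 1.03e-05 over all features tested). The difference kept its direction in the scalings run, with -0.996 when scaled to the features printed 10 times and -0.52 without scaling. Scan session and treatment cannot be told apart in it either. The arrays' Gapdh 3′ control probe had -1.18, and -0.28 without scaling, while Actb had -0.27, and +1.01 without scaling. The drop in DOX replicate 5 was 107% of that in the other DOX arrays, where Gsta4 had 15.6%.

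Duox1, a dual oxidase that releases hydrogen peroxide, did not pass the test. It measured 7.78, 7.82 and 7.91 on the CON arrays and 7.80, 7.58, 7.63 and 7.84 on DOX replicates 1, 2, 4 and 5, and the groups overlapped. The difference was -0.12 (SE 0.11, limma, adjusted p = 0.33), and it was above 0 with median scaling (+0.09), scaled to the features printed 10 times (+0.49) and without scaling (+0.96).

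The other named genes were mostly lower on the DOX arrays too after quantile normalization, and not without scaling. Of the 45 besides Gsta4, 35 had a difference below 0 after quantile normalization, with a median of -0.89 against -0.07 over all tested features, and 21 had a lower difference than Gsta4. Without scaling 17 of the 45 were below 0, with a median of +0.10 against +0.73 over all tested features. Of the 43 tested, 20 fell, 3 rose and 20 did not meet both thresholds, beside 16.1% lower and 15.5% higher over all tested features. Some of the genes not called missed only the 2-fold cut, such as Rps4l (limma, adjusted p = 0.00147) and Hspb7 (limma, adjusted p = 0.0129). Every DOX array was below every CON array for 28 of the 45 and above for 6, beside 36.3% below and 31.1% above over all tested features.

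Control spots moved with the groups as well. The arrays' own Gapdh probe near the 3′ end had a mean of 16.43 ± 0.02 (SD, n = 3) on the CON arrays and 15.26 ± 0.14 (SD, n = 4) on the DOX arrays, a difference of -1.18, and the probe near the 5′ end had -2.22. The Pgk1 control probes had -1.40 near the 3′ end and -2.42 near the 5′ end. For both glycolytic genes the drop was thus larger near the 5′ end, and all 4 differences stayed below 0 without scaling. On these Gapdh and Pgk1 probes DOX replicate 5 was not the highest DOX array, unlike for Gsta4. Set against the Gapdh 3′ probe of its own array, the Gsta4 difference was +0.22 on the quantile-normalized signals and +0.63 on the signals without scaling, so the ratio of Gsta4 to that control was higher on the DOX arrays on both scales. Set against Actb, cytoplasmic beta-actin, it was lower, at -0.69 on the quantile-normalized signals and -0.66 on the signals without scaling. Actb itself was highest in DOX replicate 5, 0.63 above the mean of the other DOX arrays after quantile normalization. The ratio to Actb thus also holds that step. Bright-corner spots, which measure no mouse transcript, had a median signal of 3362 to 3461 on the CON arrays and 21808 to 29522 on the DOX arrays, with DOX replicate 5 the brightest. The part of these control differences in the Gsta4 result was not tested.

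**Figure D5:**
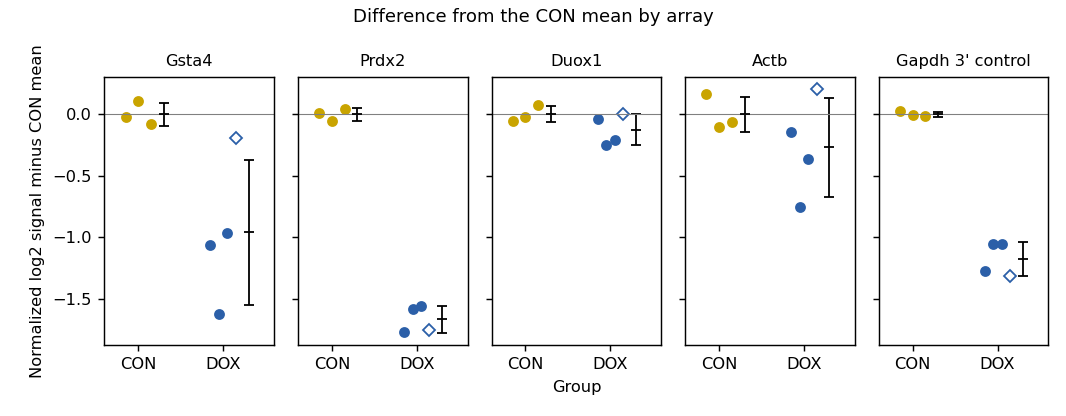
Normalized log2 signal minus the CON mean (vertical axis) by array and group (horizontal axis) for Gsta4, Prdx2, Duox1, Actb and the Gapdh 3′ control, with DOX replicate 5 as an open diamond and mean ± SD as black bars (3 CON and 4 DOX arrays). DOX replicate 5 stands above the other DOX arrays for Gsta4, is also the highest DOX array for Actb and Duox1, and lies among the others for Prdx2. Without scaling the DOX means of Gsta4, Duox1 and Actb are above the CON means.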

How the data were processed

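The members and lists were chosen with earlier results of these data known. The authors deposited, per array, Agilent Feature Extraction (version 11.0.1.1) output with a background-subtracted processed signal intensity for each spot, not normalized between arrays, and a table of quantile-normalized log2 values for 60641 probes, which does not hold the Gsta4 probe and served for counts only. Per the labels, rRNA was removed, and RNA was labelled with Cy3. Labels gave the groups, and titles gave the replicate numbers.

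The log2 of the processed signal intensity was quantile-normalized over the spots that measured transcripts, 85 unevenly bright spots were dropped, and spots of a probe were averaged. Features that 3 or more of the 7 arrays showed well above background were tested with limma 3.58.1 in R 4.3.3, with Benjamini-Hochberg adjustment over all 55464. Calls needed an adjusted p under 0.05 and a change of over 2-fold. Gsta4 was left out of the counts of named genes. Of 50 features printed 10 times, 46 were named through RefSeq by transcript and 4 were not. Features printed once were not matched to symbols. The build of that table differs from that of the array design, so no coordinates are given. In gene order, Gsta4 lies between Cilk1 and Gsta1.

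Named genes were Gsta4, the 5 nearest in pattern, the named members of the gene lists, and the neighbours in the order of differences. Actb, Chgb, Gsdmd, Dnajc11, Carhsp1, Mbp, Kcnn2 and Ppara were added after their values were seen. The alternatives were other scalings, normexp (offset 50), filters on dim features, the methods' t-test, the authors' values, blocks and leaving out each array. The number of arrays limits the precision. Calling was tested on simulated data over 55464 features for DOX against CON, where 86.5% of 200 features changed by 2 on the log2 scale were recovered.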

Additional observations from a re-analysis of the deposited data

How the results depend on the processing

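The Gsta4 difference of -0.96 became +0.35 without scaling and -0.12 when scaled to the other features printed 10 times. Alternatives chosen after seeing the data gave +0.22 relative to the Gapdh 3′ probe on normalized signals and +0.63 on signals without scaling, -0.69 and -0.66 relative to Actb on the same scales, and -0.19 with the header number as a block, where DOX replicate 5 is the one DOX array compared. The remaining scalings, spot summaries and outlier settings gave -0.97 to -0.52. Leaving out each array gave -1.22 (without DOX replicate 5, a CON level 2.32-fold the others, with -1.09, -0.78, -0.40 and +0.07 under the 75th percentile, the median, the features printed 10 times and no scaling) to -0.74 (without DOX replicate 2). The SD between spots was 0.042, 0.041 without scaling and 0.043 with normexp. Features lower in the DOX group numbered 8945, 15250 with the 75th percentile and 4302 with normexp. Features higher numbered 8583, and 4782 with normexp. Leaving out each array gave 7916 to 9091 lower and 8193 to 8591 higher. Named genes called numbered 23, 16 with normexp, 21 with the header block, 25 with the 75th percentile, and 22 to 23 without an array. Duox1 turned to 0.000499 with the header block and to +0.49 scaled to the features printed 10 times. The correlations of deviations were 0.03 and 0.0042 for the replicate numbers shared by both groups, and -0.14 to 0.15 for unlike numbers. Too few arrays share a number for these values to settle whether arrays were paired. With the replicate block Gsta4 had -1.38, 9085 features were lower, 8699 higher and 24 named genes were called. In that block only replicates 1 and 2 of each group enter the Gsta4 difference, so DOX replicate 5 does not. Normexp was run on median signals, since the planned version on mean signals needs a column not used here. Of these moves, the cause was not tested.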

Other observations

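Other named genes also took a value in DOX replicate 5 that the rest of the DOX group did not show, in either direction, and they were chosen after their values were seen. Chgb, chromogranin B of secretory granules, measured 7.09, 6.61 and 6.93 on the CON arrays and 7.73, 7.12, 7.87 and 9.85 on DOX replicates 1, 2, 4 and 5. Carhsp1, an RNA-binding protein, measured 11.36, 11.71 and 11.66 on the CON arrays and 9.61, 9.48, 9.94 and 10.42 on the DOX arrays, so it dropped less in DOX replicate 5, as Gsta4 did. Gsdmd, the pore-forming protein of pyroptosis, went the other way. It measured 9.67, 9.68 and 9.71 on the CON arrays and 8.84, 8.36, 8.54 and 7.55 on the DOX arrays, and its drop in DOX replicate 5 was 193% of that in the other DOX arrays. Dnajc11, a mitochondrial DnaJ protein, measured 9.46, 9.57 and 9.39 on the CON arrays and 8.74, 8.53, 8.53 and 7.59 on the DOX arrays, and its difference of -1.12 turned to +0.10 without scaling. Actb, cytoplasmic beta-actin, measured 10.08, 9.81 and 9.85 on the CON arrays and 9.77, 9.16, 9.54 and 10.12 on the DOX arrays, a difference of -0.27 that was above 0 with median scaling (+0.14), scaled to the features printed 10 times (+0.54) and without scaling (+1.01). DOX replicate 5 thus stood above the other DOX arrays for Chgb, Carhsp1 and Actb and below them for Gsdmd and Dnajc11. Steps are taken here from the mean of DOX replicates 1, 2 and 4 to DOX replicate 5, after quantile normalization. Mbp (-1.63), Kcnn2 (-1.56) and Ppara (-1.07) had larger steps down than Gsdmd (-1.03) and Dnajc11 (-1.01). Uhrf1bp1l (+1.09) had a larger step up than Carhsp1 (+0.75) and Actb (+0.63).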
